A study of Mus musculus with 2 samples.

Results

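The genes described are the SR proteins, the hnRNP proteins and the kinases that phosphorylate SR proteins, in microglia and endothelial cells of the mouse brain. They were chosen by symbol: Srsf followed by a number, Tra2a and Tra2b (13 genes, grouped as SR proteins), every symbol that starts with Hnrnp (20 genes), and Clk1 to Clk4 with Srpk1 and Srpk2 (6 kinases), without pseudogenes. These are 39 of the 55450 genes in the gene list. The cells came from adult male C57BL/6J mice, whose genotype label is C57, and none of the labels names a transgene or deletion. The awake group is 3 mice given saline, and the anesthesia group is 3 mice given 100 mg/kg sodium pentobarbital, a barbiturate anesthetic. Brain cells sorted as CD11b+CD45low, the usual gate for microglia, were captured with the 10x Genomics 3' chemistry, which counts RNA molecules near their 3' end by a unique molecular identifier (UMI). Each group is 1 library. The labels do not say whether the 3 mice were pooled before capture or how long the drug acted.

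Splicing removes introns from a transcript, and the choice of exons depends on proteins that sit on the transcript beside the spliceosome. SR proteins, named for their tails of arginine and serine repeats, mostly bind exonic enhancers and recruit the spliceosome, whereas many hnRNP proteins bind silencers and oppose them. SRPK kinases phosphorylate SR proteins in the cytoplasm, which lets them enter the nucleus, and CLK kinases phosphorylate them further in the nucleus and release them from speckles. Many of these genes splice their own transcripts into forms that are degraded or kept in the nucleus, so a level of RNA is not a level of protein.

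The awake library held 53262885 UMIs in 8600 barcodes and the anesthesia library 61139016 UMIs in 9412 barcodes, with 14 barcodes in both, and 8223 and 8944 cells passed the filters. Microglia-like cells numbered 7534 awake and 8453 in anesthesia, with medians of 5955 and 5433 UMIs per cell and of 1.33% and 2.15% mitochondrial UMIs. Endothelial-like cells, which the sort should have removed, numbered 113 and 123. The 2 libraries lay largely apart among the 6 microglia-like clusters: 2 clusters held 3871 and 2932 awake against 333 and 211 anesthesia cells, 2 others 173 and 248 against 4545 and 3191, and the last pair 94 and 216 against 102 and 71. Gm42418, a transcript that carries ribosomal RNA sequence, was at 1586 and 3985 UMIs per 1000000 UMIs (CPM) in the microglia-like cells. The totals of these cells were also taken without Gm42418, AY036118 and the mitochondrial, ribosomal protein and hemoglobin genes. The counts of members past 1.5-fold given below for microglia-like cells were then the same. Their median log2 ratio over members was 0.09 in place of 0.06. For endothelial-like cells, where Gm42418 was at 3515 and 8386 CPM, this was not done. With 1 library per group no test was possible. Every interval below is a 95% interval for counting error only, and library, handling and drug cannot be told apart.

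In microglia-like cells 38 of the 39 genes had 200 UMIs or more in the sum of both libraries, the minimum taken here for a measured gene, beside 11399 genes in all. Srsf12 had 1 UMI in the awake and 2 UMIs in the anesthesia library, both under the 3 UMIs taken as a floor, which correspond to 0.0621 and 0.0531 CPM. The 38 genes together made up 12630 CPM awake and 13300 CPM in anesthesia. Their median level was 254 CPM, against 25.3 CPM for the 10044 measured protein-coding genes. The levels are not divided by gene length, since the chemistry counts each molecule at its 3' end. SR proteins summed to 6032 and 5625 CPM, hnRNP genes to 5701 and 6617 CPM and kinases to 892 and 1054 CPM, the awake library first in each pair. SR proteins were thus the larger sum in the awake library and hnRNP genes in the anesthesia library.

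**Figure D1:**
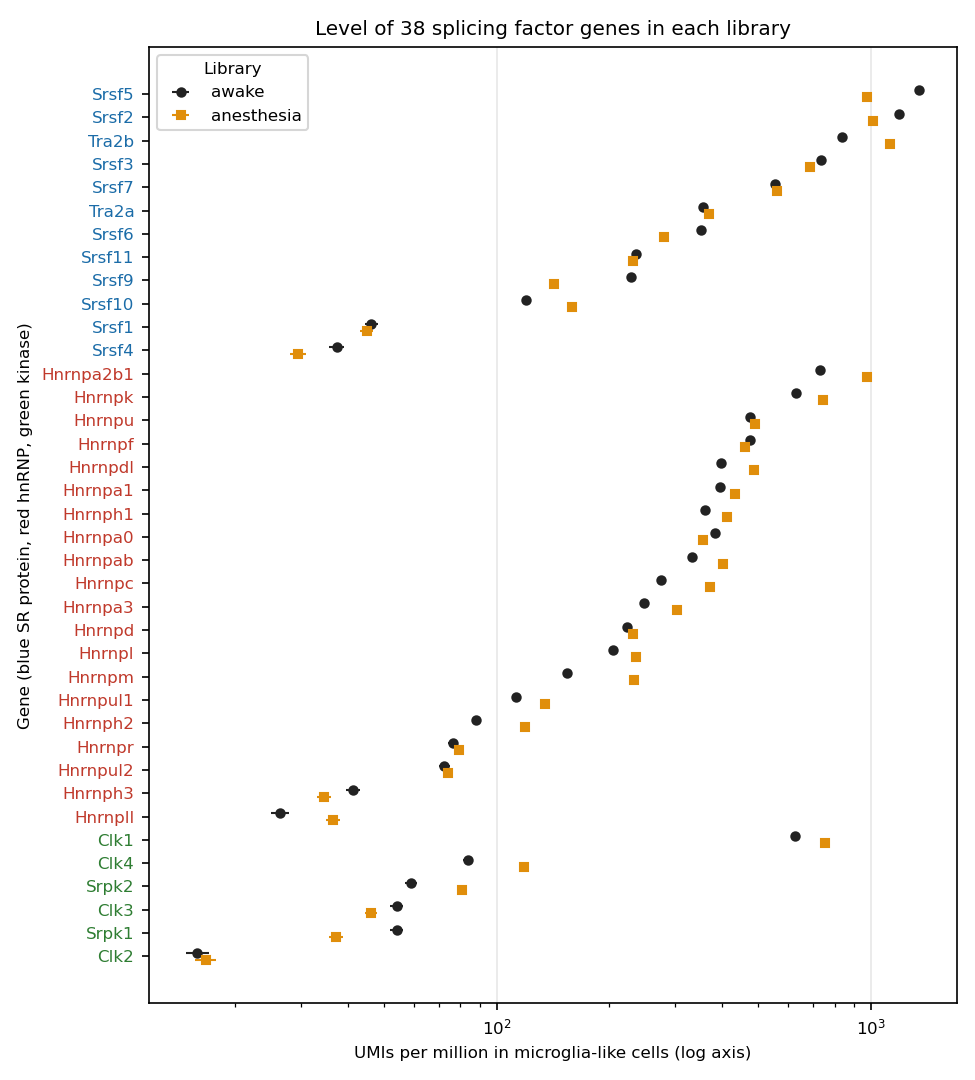
Level of each measured gene in microglia-like cells on a log10 axis in CPM, with 1 point for the awake and 1 for the anesthesia library and bars for the exact Poisson 95% interval. Levels run from Clk2, at 15.8 CPM awake and 16.7 CPM in anesthesia, to Srsf5, at 1344 CPM awake and 978 CPM in anesthesia.

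Among SR proteins the highest levels were those of Srsf5, Srsf2 and Tra2b. Srsf5, an SR protein that binds exonic enhancers, had 1344 CPM (1334 to 1355) awake and 978 CPM (970 to 987) in anesthesia. Srsf2, also known as SC35 and a common marker of nuclear speckles, had 1186 CPM (1176 to 1195) and 1014 CPM (1006 to 1023). Tra2b, which binds GA-rich exonic enhancers, had 838 CPM (830 to 846) and 1127 CPM (1118 to 1136). The order of these 3 genes therefore differed between the libraries: Srsf5 led awake and Tra2b in anesthesia, and none of the intervals overlapped within a library. Srsf1, the archetypal SR protein, was near the bottom of its family with 46.3 CPM (44.4 to 48.2) and 44.9 CPM (43.2 to 46.7).

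Few of these genes differed by 1.5-fold or more between the libraries. In microglia-like cells 1 of the 38 was at least 1.5-fold higher in anesthesia, Hnrnpm, against a background of 13.2% of all measured genes, and 1 was at least 1.5-fold lower, Srsf9, against a background of 11.9%. Together they are 5.26% of the members, whereas 25.2% of all measured genes were past that fold in either direction. The members are abundant, and abundant genes were past the fold less often, so the level was matched as well. Weighted to the members' levels, 16.3% of measured genes were past the fold, which corresponds to 6.2 of 38 genes. Between 100 and 500 CPM, where 20 of the 38 lie, 9.62% of 1320 genes were higher and 5.15% lower, and both Hnrnpm and Srsf9 are in this band. Between 20 and 100 CPM 0 of the 9 members were past the fold, against 9.43% higher and 9.85% lower of 4293 genes. None of the 8 members at 500 CPM and over was past the fold in either direction, against 8.72% higher and 6.04% lower of 298 genes. The median absolute log2 ratio was 0.26 for the members, 0.27 at matched levels and 0.34 for all measured genes. The typical member therefore differed about as much as other genes of its level, and it was the tail of large differences that held fewer members.

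**Figure D2:**
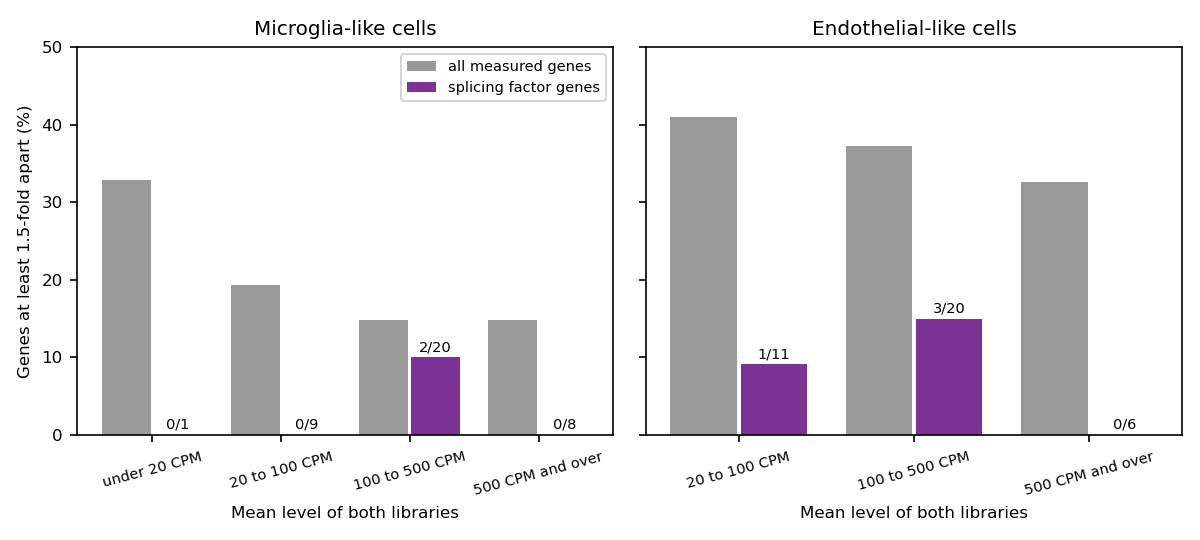
Percent of genes at least 1.5-fold higher or lower in anesthesia, by band of mean level in CPM, for all measured genes and for the splicing factor genes, in microglia-like and endothelial-like cells. In microglia-like cells the only members past the fold are Hnrnpm and Srsf9, both between 100 and 500 CPM.

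Most hnRNP genes were above 0 in microglia-like cells, and SR proteins lay on both sides. The median log2 ratio of anesthesia over awake was 0.06 over the 38 members and -0.02 over all measured genes, with 25 of 38 members and 5542 of 11399 measured genes above 0. Of the 20 hnRNP genes, 17 were above 0, with a median of 0.22. Of the 12 measured SR proteins, 4 were above 0, with a median of -0.07, close to that of all measured genes. The hnRNP median stayed above 0 and the SR median below 0 in each of the 15 other ways of processing tried, at 0.10 to 0.25 and -0.21 to -0.03. The number of hnRNP genes above 0 was 13 of 20 with trimmed-mean (TMM) scaling and also after removal of the trend on GC content and length. Within clusters 15 of 20 hnRNP genes and 6 of 12 SR proteins were above 0, against 5697 of 11399 measured genes.

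Srsf9, a small SR protein close in sequence to Srsf1, was the lowest of the 38 by log2 ratio. It had 228 CPM (224 to 233) awake and 142 CPM (139 to 145) in anesthesia, giving a log2 ratio of -0.68 (-0.73 to -0.64). It was below 0 in each of the 6 microglia-like clusters, at -0.87 to -0.40 with every interval below 0. It was also at least 1.5-fold lower in each of the 15 alternatives. Alternatives that only change the minimum UMIs of a measured gene cannot move the ratio of a single gene, here and below. After each cell was thinned to 2000 UMIs, Srsf9 was seen in 36.7% (35.6 to 37.8) of 7348 awake cells and in 25.3% (24.4 to 26.3) of 8148 anesthesia cells. The unthinned shares were 73.7% and 55.0%. Fewer cells of the anesthesia library thus held a Srsf9 molecule at equal depth, in step with the lower level.

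Srsf5 had the next lowest ratio among SR proteins, -0.46 (-0.48 to -0.44), from the levels given above. It was below 0 in all 6 clusters, at -0.37 to -0.19, so each cluster showed a smaller difference than the whole. Cells with Srsf5 after thinning were 90.5% (89.8 to 91.1) awake and 84.0% (83.2 to 84.8) in anesthesia. Srsf2 was at -0.22 (-0.24 to -0.21) and below 0 in all 6 clusters. Srsf6, which binds exonic enhancers, was at -0.33 (-0.36 to -0.29), from 351 to 280 CPM. Srsf4, a larger SR protein, was at -0.34 (-0.44 to -0.24), from 37.3 to 29.5 CPM. Neither reached the 1.5-fold line.

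Tra2b and Srsf10 were the 2 SR proteins with ratios well above 0. The ratio of Tra2b was 0.43 (0.41 to 0.44), above 0 in all 6 clusters at 0.32 to 0.72, and its share of thinned cells was 77.7% (76.7 to 78.7) awake and 86.0% (85.3 to 86.8) in anesthesia. Srsf10, which represses splicing when it is dephosphorylated, had 120 CPM awake and 159 CPM in anesthesia, a ratio of 0.41 (0.36 to 0.46). Tra2a, the paralog of Tra2b, was at 0.06 (0.03 to 0.09), with 356 and 370 CPM. The paralogs thus differed in size of change between the libraries while both were among the abundant genes.

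The SR proteins nearest to 0 were Srsf7, Srsf11 and Srsf1. Srsf7, which also takes part in RNA export, was at 0.02 (-0.01 to 0.04) with 553 and 560 CPM. Srsf11, an SR-related protein, was at -0.03 (-0.07 to 0.01), and Srsf1 at -0.04 (-0.13 to 0.04). The intervals of these 3 genes include 0 and leave little room for a difference between the summed counts. Srsf3, the smallest SR protein, was at -0.10 (-0.12 to -0.07) over all microglia-like cells but above 0 in each of the 6 clusters, at 0.02 to 0.19. Averaged within clusters its ratio was 0.09. The sign for Srsf3 thus depended on whether cells were compared in whole or within clusters, which divide the 2 libraries unequally.

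Among hnRNP genes Hnrnpm, whose protein binds GU-rich sequence, had the highest ratio. Its level was 154 CPM (151 to 157) awake and 232 CPM (228 to 236) in anesthesia, giving a log2 ratio of 0.59 (0.55 to 0.63) and a fold of 1.51. It lies just inside the 1.5-fold line, and it was past the line in 10 of the 15 alternatives, with a lowest ratio of 0.48. It was above 0 in all 6 clusters, at 0.15 to 0.86. Thinned cells with Hnrnpm were 26.7% (25.7 to 27.8) awake and 35.9% (34.9 to 37.0) in anesthesia. In the GENCODE annotation exons of Hnrnpm overlap those of March2 on the same strand, between chr17:33685692 and 33686860. This stretch is at the 5' end of Hnrnpm and the 3' end of March2, and the chemistry counts near the 3' end. Reads in the shared stretch cannot be assigned to either gene with certainty, and their part in the count of Hnrnpm was not tested.

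Other hnRNP genes were also higher in the anesthesia library, by less than 1.5-fold. Hnrnpa2b1, an RNA-binding protein of splicing and RNA transport, had 730 CPM (723 to 738) awake and 974 CPM (966 to 982) in anesthesia, a ratio of 0.42 (0.40 to 0.44). Hnrnpk, which binds C-rich sequence, had 631 and 747 CPM, a ratio of 0.24 (0.22 to 0.26). Both were above 0 in all 6 clusters. Hnrnpc, which binds U tracts, was at 0.44 (0.41 to 0.47), from 275 to 372 CPM. Hnrnph2, which binds G tracts, was at 0.43 (0.38 to 0.49), from 88.3 to 119 CPM. Hnrnpll, known for regulating splicing of the gene for CD45 in lymphocytes, was at 0.47 (0.36 to 0.57), from 26.4 to 36.5 CPM.

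The hnRNP genes nearest to 0 were Hnrnpul2, Hnrnpf and Hnrnpu. Hnrnpul2, a relative of Hnrnpu, was at 0.03 (-0.04 to 0.10). Hnrnpf, a G-tract binder, was at -0.04 (-0.07 to -0.02) with 475 and 461 CPM. Hnrnpu, which binds chromatin-associated RNA, was at 0.05 (0.02 to 0.08) with 475 and 491 CPM. Hnrnpu and Hnrnpf were level in the awake library, at 468 to 481 and 469 to 481 CPM. Below 0 along with Hnrnpf were Hnrnpa0, at -0.10, and Hnrnph3, at -0.26 with 41.3 and 34.6 CPM. Hnrnpa1, a classical antagonist of SR proteins, was at 0.13 (0.10 to 0.16) with 396 and 434 CPM.

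The kinases divided, and none was past the 1.5-fold line. Clk1, by far the most abundant, had 626 CPM (618 to 633) awake and 754 CPM (747 to 762) in anesthesia, a ratio of 0.27 (0.25 to 0.29). Clk4, its close paralog, had 83.8 CPM (81.2 to 86.4) and 118 CPM (115 to 121), a ratio of 0.50 (0.44 to 0.55). Both were above 0 in all 6 clusters. Clk2 and Clk3, the other nuclear kinases, were at 0.07 (-0.07 to 0.21) and -0.23 (-0.31 to -0.15). Averaged within clusters the ratio of Clk3 was 0.05, and its interval was below 0 in 0 of the 6 clusters, so its sign depended on the comparison, like that of Srsf3.

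The 2 cytoplasmic kinases had ratios of opposite sign. Srpk1 had 54.0 CPM (51.9 to 56.1) awake and 37.2 CPM (35.6 to 38.8) in anesthesia, a ratio of -0.54 (-0.62 to -0.45). Srpk2 had 59.0 CPM (56.9 to 61.2) and 80.9 CPM (78.6 to 83.3), a ratio of 0.46 (0.39 to 0.52). The gap between the 2 genes was small in the awake library and wide in the anesthesia library, where Srpk2 was the higher. Srpk1 was below 0 in 6 of 6 clusters and Srpk2 above 0 in 5 of 6. Srpk1 lies just outside the 1.5-fold line, at a fold of 1.45, and crossed it in 4 of the 15 alternatives. The median of the 6 kinases was 0.17 with 4 above 0, and it was -0.03 with 3 above 0 among cells under 5000 UMIs.

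**Figure D3:**
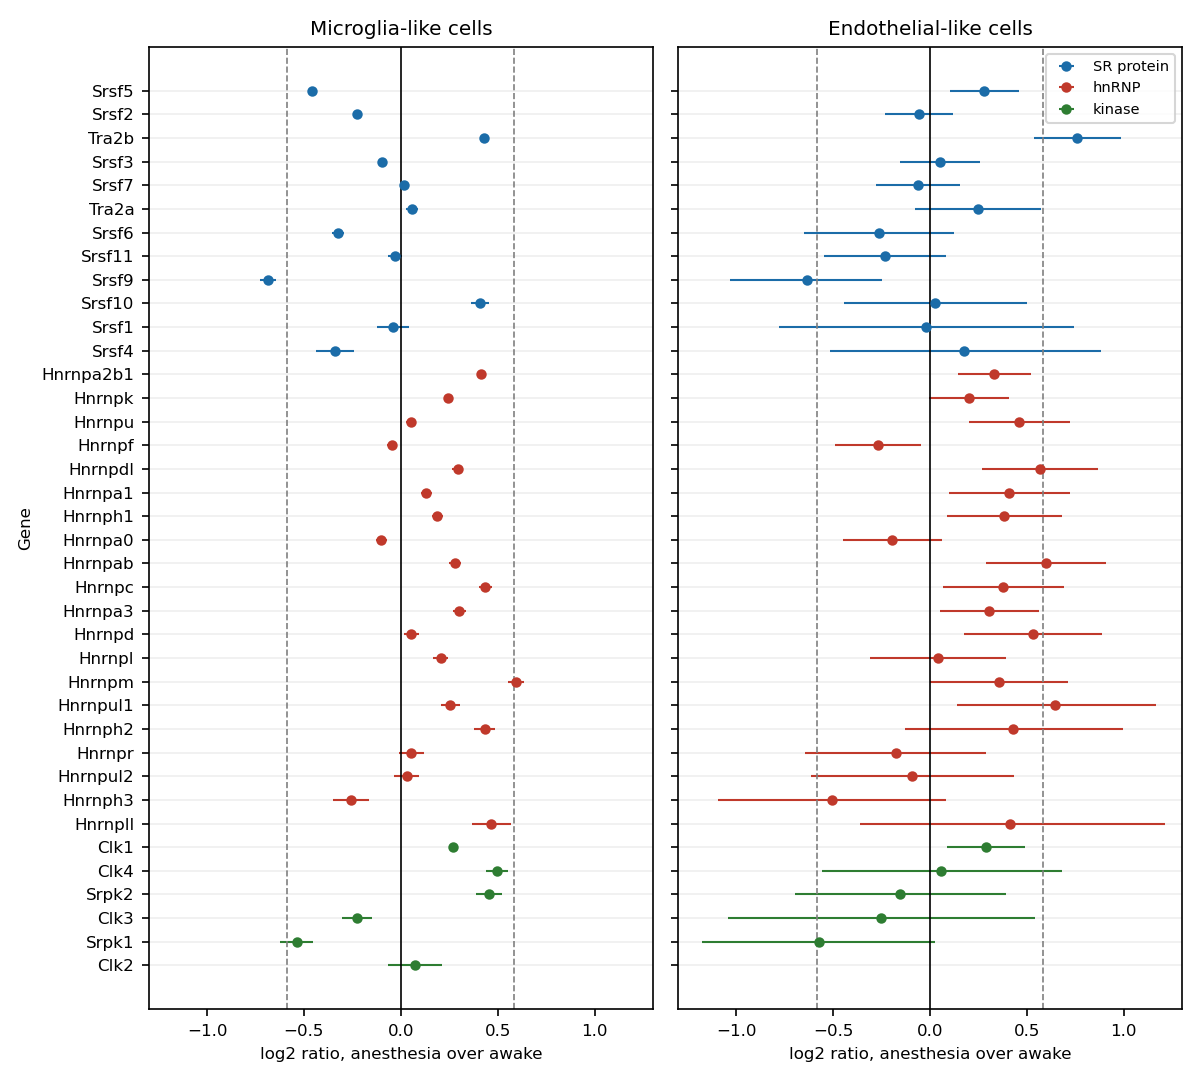
Log2 ratio of anesthesia over awake for each measured gene in microglia-like and in endothelial-like cells, with exact 95% counting intervals and lines at 1.5-fold. In microglia-like cells Srsf9 (-0.68) and Hnrnpm (0.59) lie past the lines, and the wider intervals in endothelial-like cells follow from the smaller counts.

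The promoters of Srsf9, Hnrnpm and Srsf5 are shown because Srsf9 and Hnrnpm are the members past 1.5-fold in microglia-like cells and Srsf5 had ratios of opposite sign in the 2 cell types. Each window runs from 250 bases before to 50 bases after the RefSeq start (GRCm38.p6), 5' to 3' on the gene's strand, and capitals mark letters that match a searched motif. Srsf9 lies at chr5:115327177-115333080 on the + strand, Hnrnpm at chr17:33646233-33686860 on the - strand and Srsf5 at chr12:80945504-80950507 on the + strand. The windows are chr5:115326927-115327226, chr17:33685409-33685708 and chr12:80945249-80945548.
Srsf9: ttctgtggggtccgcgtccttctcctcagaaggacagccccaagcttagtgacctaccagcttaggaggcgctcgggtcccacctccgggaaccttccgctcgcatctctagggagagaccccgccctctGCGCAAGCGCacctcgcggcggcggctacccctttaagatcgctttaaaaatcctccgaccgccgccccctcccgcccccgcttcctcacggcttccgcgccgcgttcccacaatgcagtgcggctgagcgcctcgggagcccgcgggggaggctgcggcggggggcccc
Hnrnpm: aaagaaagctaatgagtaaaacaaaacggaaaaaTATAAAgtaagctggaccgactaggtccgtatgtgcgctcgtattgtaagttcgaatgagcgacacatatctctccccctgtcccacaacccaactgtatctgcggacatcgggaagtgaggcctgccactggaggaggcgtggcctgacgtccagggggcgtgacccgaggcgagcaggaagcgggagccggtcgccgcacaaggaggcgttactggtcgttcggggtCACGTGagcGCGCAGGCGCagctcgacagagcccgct
Srsf5: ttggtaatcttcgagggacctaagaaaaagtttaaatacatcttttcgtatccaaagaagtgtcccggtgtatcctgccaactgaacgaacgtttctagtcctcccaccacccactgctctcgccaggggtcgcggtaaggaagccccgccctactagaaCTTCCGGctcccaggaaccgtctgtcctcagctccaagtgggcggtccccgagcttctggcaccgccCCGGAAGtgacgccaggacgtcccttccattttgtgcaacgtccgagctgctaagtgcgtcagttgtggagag
The capitals in the Srsf9 window match the NRF1 motif, GCGCA and GCGC with any 1 base between them, which starts at base 131. The Hnrnpm window holds the same motif at base 273, the E-box CACGTG at base 264 and the TATA box letters TATAAA at base 35, far upstream of where a TATA box acts. The Srsf5 window holds the ETS motif CCGGAAG at base 228 and its reverse complement at base 161. Motifs were searched on both strands in 50 windows of 36 member genes and in all 32851 windows of the table. The NRF1 letters were in 18% of member windows and 4.60% of all windows, and the ETS letters in 22.0% and 8.86%. The E-box was in 12.0% and 7.15%, and TATAAA in 10.0% and 13.6%. For the other motifs searched the shares were 4.0% and 1.79% for the CRE TGACGTCA, 4.0% and 2.38% for the YY1 motif AANATGGCG, and 48.0% and 37.4% for the CCAAT box. Several windows belong to the same gene, so windows are not independent. The windows of the table were not limited to measured genes or matched by level. The members are more abundant than the typical measured gene, and the part of abundance in these shares was not tested. The NRF1 letters occur in genes at both ends of the range of ratios, Srsf9 and Hnrnpm, as well as in Srsf2, Srsf4, Srsf11, Hnrnpf, Hnrnph1 and Srpk2.

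The annotation of the 38 measured genes shares a feature that the choice by symbol did not use. An annotated transcript marked for nonsense-mediated decay, the pathway that degrades messages with an early stop codon, exists for 27 of the 38 (71.1%), against 30.8% of the 10044 measured protein-coding genes. A transcript with a retained intron exists for 30 (78.9%) against 62.3%. Members have a median of 9 annotated transcripts against 5. The members are also more abundant than those genes, and the part of abundance in these shares was not tested. Counts near the 3' end do not separate these transcripts, so ratios here are sums over them. Exons overlap another gene's exons on the same strand for 4 of the 39 genes (Clk4, Hnrnpa3, Hnrnpm and Hnrnpul2) and on the opposite strand for 13.

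Endothelial-like cells were far fewer, so the minimum for a measured gene was 50 UMIs in the sum of both libraries. These were 37 of the 39 members, without Srsf12 and Clk2, and 4900 genes in all. Srsf12 had 0 UMIs in both libraries, under the floor of 3 UMIs, which corresponds to 4.28 CPM awake and 3.6 CPM in anesthesia. The upper ends of its exact Poisson intervals were 5.27 and 4.43 CPM. The 10 endothelial markers, such as Cldn5 of tight junctions, summed to 21340 CPM awake and 14200 CPM in anesthesia, against 63.5 and 51.5 CPM in microglia-like cells. The clusters thus carried their label. They also carried microglial RNA, and more of it in the anesthesia library. All 10 microglia markers were detected; without Sparc, which endothelial-like cells held at a level close to that of microglia-like cells, the other 9 summed to 4336 and 9209 CPM, which is 18.3% and 43.1% of their level in microglia-like cells. Cells with at least 5 of these 9 markers were 41 of 113 (36.3%, 27.5 to 45.9) in the awake and 59 of 123 (48.0%, 38.9 to 57.2) in the anesthesia library. Their median depths were 7550 and 8688 UMIs, against 5058 and 3742 UMIs in the other endothelial-like cells. Whether this RNA was free or came from microglia captured with these cells was not tested. In addition, 9 erythroid markers summed to 14550 CPM awake and 5767 CPM in anesthesia, and 6 detected of 10 fibroblast markers to 140 and 636 CPM, with Col1a1, Igf2, Lum and Slc6a13 at 0. The part of the erythroid and fibroblast RNA in the results was not tested.

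**Figure D4:**
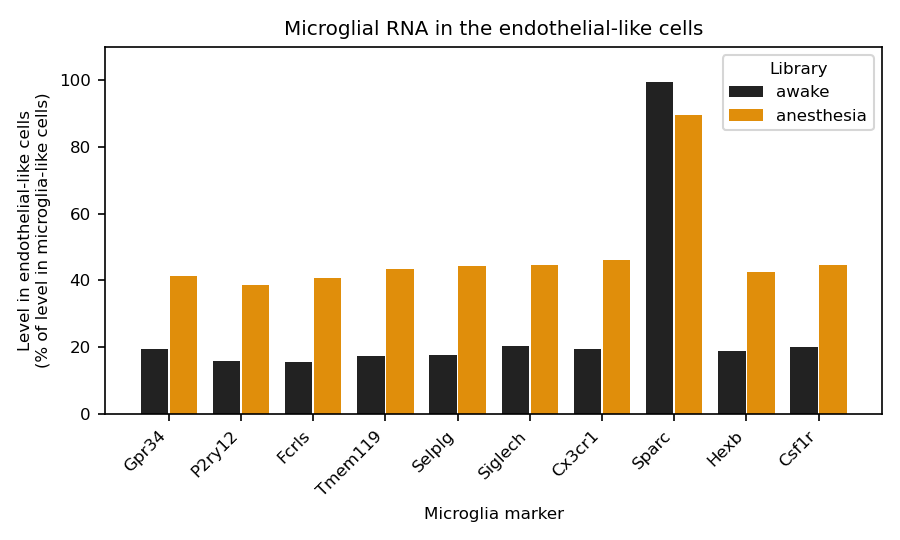
Level of 10 microglia markers in endothelial-like cells as a percent of their level in microglia-like cells, with 1 bar per library. Except for Sparc, every marker is at 15.4% to 20.2% in the awake library and at 38.7% to 46.2% in the anesthesia library.

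In endothelial-like cells 3 members were at least 1.5-fold higher in anesthesia, Tra2b, Hnrnpul1 and Hnrnpab, against a background of 18.6% of measured genes, and 1 was lower, Srsf9, against 20.8%. All 4 had counting intervals on 1 side of 0; with that condition the background was 16.3% higher and 18.4% lower. Past the fold were thus 10.8% of the members, against 39.4% of all measured genes and 37.6% at matched levels, or 13.91 of 37 genes. Between 20 and 100 CPM 1 of 11 members, Hnrnpul1, was higher and 0 were lower, against 18.6% and 22.4% of 3156 genes. Between 100 and 500 CPM 2 of 20 were higher and 1 lower, against 18.5% and 18.7% of 1462 genes, and 0 of the 6 at 500 CPM and over were past the fold, against 19.1% and 13.5% of 282. The median absolute log2 ratio was 0.28 for the members and 0.44 at matched levels. The median ratio was 0.18 over the 37 members and -0.06 over all measured genes. By family it was 0.00 for the 12 SR proteins, 0.37 for the 20 hnRNP genes, of which 15 were above 0, and -0.15 for the 5 kinases.

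Srsf9 was again lower in the anesthesia library. Its level in endothelial-like cells was 183 CPM (153 to 217) awake and 118 CPM (95.5 to 143) in anesthesia, a ratio of -0.64 (-1.03 to -0.25). It was below 0 in each of the 12 alternatives, at -0.90 to -0.45, with -0.81 after subtraction of the microglial profile scaled by the 9 markers and -0.58 in cells chosen for having at least 3 endothelial and fewer than 5 microglia markers. It was past the fold in 8 of the 12, and short of it in the cells chosen by markers, with median centring (-0.58), with TMM scaling (-0.54) and after removal of the GC and length trend (-0.45). The 8 include alternatives that could only repeat the main value. These are the other UMI minimums and Leiden resolution 1.0, which gave the same numbers of cells, 113 and 123. Thinned cells with Srsf9 made up 34.0% (25 to 43.8) of 106 in the awake library and 22.3% (15 to 31.2) of 112 in the other, shares whose intervals overlap. P2ry12, a microglial receptor that endothelial cells should lack, was taken as a gauge of microglial RNA in these cells. It was seen in 21.7% (14.3 to 30.8) and 45.5% (36.1 to 55.2) of the same cells. In microglia-like cells P2ry12 was at 1805 and 1701 CPM and Srsf9 at 228 and 142 CPM, so the sizes of these shares cannot be compared. The share of Srsf9 is no evidence of endothelial Srsf9 by itself, and the part of microglial RNA in it was not tested. Median depths were 5507 and 4535 UMIs per endothelial-like cell.

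Tra2b, Hnrnpab and Hnrnpul1 did not all keep their direction when microglial RNA was taken into account. Tra2b had 354 CPM (311 to 401) awake and 599 CPM (547 to 654) in anesthesia, a ratio of 0.76 (0.54 to 0.98). It was at -0.31 after subtraction of the microglial profile and at 0.07 in the 60 awake and 52 anesthesia cells chosen by markers. Hnrnpab, a relative of Hnrnpd, had 198 CPM (167 to 234) and 300 CPM (264 to 340), a ratio of 0.60 (0.29 to 0.91), which became 0.39 after subtraction and -0.02 in cells chosen by markers. Hnrnpul1, linked to the DNA damage response, had 72.8 CPM (54.2 to 95.7) and 114 CPM (92.2 to 139), a ratio of 0.65 (0.14 to 1.17), and was at 0.62 after subtraction. Hnrnpul1 had too few UMIs to be measured in the cells chosen by markers. In the awake library the log2 ratio of the level of Tra2b in endothelial-like over microglia-like cells was -1.24 (-1.43 to -1.06).

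The median over the measured members moved with the same correction. It was -0.16 over the 33 members still measured after subtraction, where all measured genes were at -0.09, and the hnRNP median was -0.04 with 9 of 19 above 0. In cells chosen by markers the median was 0.08 over 24 members, and the hnRNP median was 0.22 with 9 of 14 above 0, where 903 of 1707 measured genes were above 0. The hnRNP median was thus near 0 after subtraction and above 0 in the chosen cells. The members past the fold in the chosen cells were Hnrnpc at 0.93, Hnrnpd at 0.92, Hnrnpdl at 0.77, Hnrnpa1 at 0.64 and Srsf6 at -0.82. None of them was among the 4 past it in all endothelial-like cells. The chosen cells were picked from all cells that passed the filters, whatever their cluster, and held 300985 and 199029 UMIs. The share of all measured genes past the fold in them is not given here, so this count is no result about the members. Hnrnpd, which binds AU-rich elements, kept a ratio of 0.62 after subtraction, against 0.53 (0.18 to 0.89) before it.

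Srsf5 had opposite signs in the cell types. In endothelial-like cells it had 633 CPM (575 to 694) awake and 768 CPM (710 to 830) in anesthesia, a ratio of 0.28 (0.10 to 0.46), against -0.46 in microglia-like cells. The difference between the cell types was 0.74 (0.56 to 0.91, counting error only). It was not reduced by correcting for microglial RNA: the endothelial ratio was 0.36 after subtraction scaled without Sparc and 0.41 in cells chosen by markers. Thinned cells with Srsf5 were 65.1% (55.2 to 74.1) awake and 75.0% (65.9 to 82.7) in anesthesia. Tra2b, Hnrnpu, Hnrnpd and Hnrnpab also differed between the cell types beyond counting error, with the higher ratio in endothelial-like cells. The differences were 0.33 (0.11 to 0.55), 0.41 (0.16 to 0.67), 0.47 (0.13 to 0.82) and 0.32 (0.02 to 0.62). Srpk2 and Hnrnpf had the lower ratio there, with differences of -0.61 (-1.13 to -0.08) and -0.22 (-0.44 to -0.004). The share of all measured genes with such a difference is not given here. After subtraction scaled without Sparc the endothelial ratio of Hnrnpu was 0.38, and that of Tra2b was below 0, as given above. Before subtraction Clk1 was at 0.29 (0.09 to 0.49), Hnrnpa2b1 at 0.33 (0.14 to 0.52) and Hnrnpk at 0.20 (-0.01 to 0.41) in endothelial-like cells, while Srsf2 was at -0.06 (-0.23 to 0.12). After it Clk1 was at 0.05, Hnrnpa2b1 at -0.08, Hnrnpk at -0.17 and Srsf2 at -0.48.

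The level of these genes was also compared between the cell types. Endothelial-like over microglia-like, 5 of the 37 members were at least 1.5-fold lower in both libraries, Srsf6, Hnrnpdl, Tra2a, Hnrnpa1 and Tra2b, against a background of 16.4% of 4577 genes, and 1 was higher, Hnrnph3, against 21.5%. Members past the fold were thus no more frequent than measured genes in either direction. The median log2 ratio over members was -0.38 awake and -0.34 in anesthesia, against 0.12 and 0.00 for all genes. These medians were not matched by level. Srsf6 was at -1.10 (-1.38 to -0.83) and -1.03 (-1.31 to -0.77), and Tra2b in the anesthesia library at -0.91 (-1.04 to -0.79). Srsf5 was at -1.09 (-1.23 to -0.95) in the awake library and at -0.35 (-0.46 to -0.24) in the anesthesia library, so it was not lower by 1.5-fold in both. Hnrnph3 was at 0.95 (0.54 to 1.34) and 0.71 (0.26 to 1.12). The endothelial-like sums include microglial RNA at the shares given above, which were larger in the anesthesia library, and its part in these ratios was not tested.

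**Figure D5:**
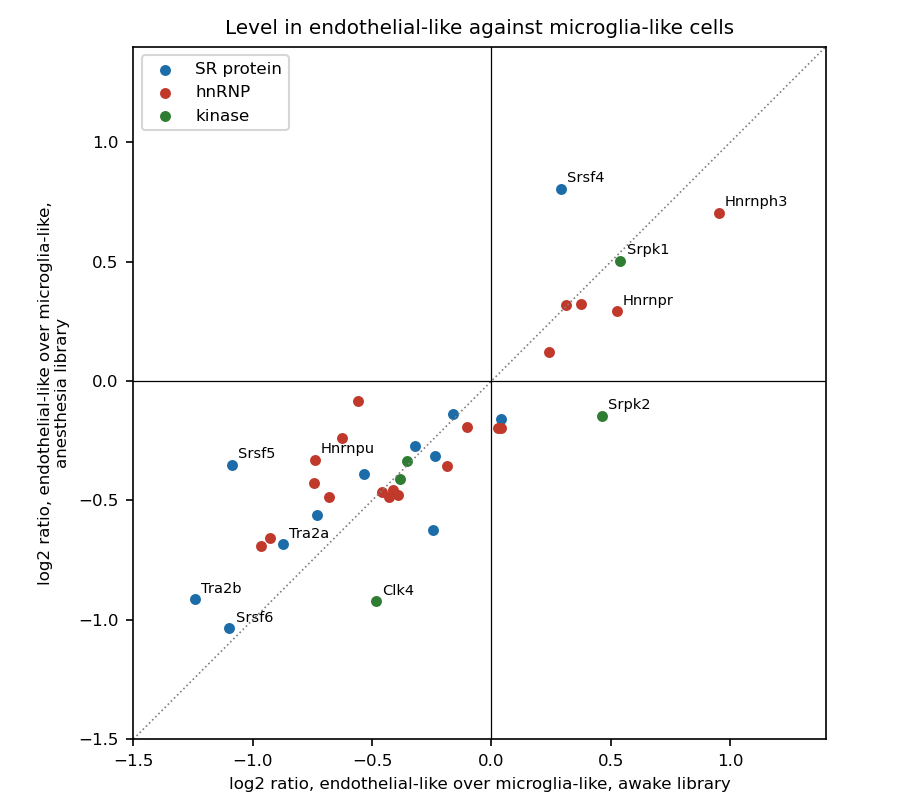
Log2 ratio of endothelial-like over microglia-like level for each member, with the awake library on the x axis and the anesthesia library on the y axis; the diagonal marks equal ratios. Most members lie below 0 on both axes, Hnrnph3 (0.95 and 0.71) is high on both, and Srsf5 lies well above the diagonal.

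The other genes of the splicing pathway were taken from 7 lists of 184 genes, whose ratios are given for microglia-like cells. Their counts past 1.5-fold stand against 13.2% of all measured genes higher and 11.9% lower, and 5542 of 11399 above 0. Of 31 SR-related and speckle proteins, 23 were above 0 with a median of 0.20, and 1 was past 1.5-fold: Son, a scaffold of nuclear speckles, with 728 CPM awake and 1114 CPM in anesthesia, a ratio of 0.61 (0.60 to 0.63). Luc7l3, linked to U1 snRNP, was at 0.58 (0.53 to 0.63), and the lowest was Acin1 at -0.27. Of 17 other kinases, phosphatases and importers of SR proteins, 3 were higher and 1 lower. Tnpo3, the importin that carries phosphorylated SR proteins into the nucleus, had 121 and 185 CPM, a ratio of 0.61 (0.56 to 0.66). Dyrk2, a kinase related to the CLK family, was at 0.60 (0.54 to 0.66), whereas Dyrk1b, at 2.92 and 1.08 CPM, was at -1.44 (-1.89 to -0.99).

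Among core parts of the spliceosome and decay factors, each list had at most 2 genes higher and at most 2 lower by the fold in microglia-like cells. Of 21 U1, U2 and branch-site factors, 14 were below 0 with a median of -0.09, and 0 were higher and 2 lower by the fold, Sf3b5 and Phf5a, subunits of the SF3B complex, at -0.62 (-0.70 to -0.55) and -0.59 (-0.66 to -0.51). Of 15 Sm and LSm proteins, the rings that hold spliceosomal RNAs, 11 were below 0 with a median of -0.13, and 2 were higher and 2 lower: Snrpf at 0.89 (0.82 to 0.96) and Snrpg at 0.80 (0.74 to 0.86), against Lsm1 at -0.72 and Lsm3 at -0.67. Of 30 tri-snRNP and catalytic factors, 14 were below 0 with a median of 0.02, and 2 were higher and 1 lower, led by Dhx15, the helicase that takes apart spliceosomes, at 0.86 (0.81 to 0.91), with Dhx16 at -0.67. Of 17 genes of nonsense-mediated decay and the exon junction complex, 12 were below 0 with a median of -0.16, and 0 were higher and 2 lower, Ncbp2 at -0.72 and Upf3b at -0.62.

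Other splicing regulators held the largest difference of the pathway, that of Cirbp. Of 46 measured, 4 were higher (Cirbp, Ptbp2, Fxr1 and Rbm22) and 1 lower (Tia1). Ptbp2, the neural paralog of the polypyrimidine tract binding protein, had 29.9 CPM awake and 60.0 CPM in anesthesia, a ratio of 1.01 (0.92 to 1.10). Tia1, which binds U-rich sequence beside splice sites, was at -0.72 (-0.82 to -0.62). The ratio of Cirbp, a cold-inducible RNA-binding protein, was 1.58 in microglia-like cells and 2.24 (1.64 to 2.89) in endothelial-like cells. Rbm3, another cold-inducible RNA-binding protein of the list, was at -0.34 (-0.37 to -0.31) and 0.03 (-0.24 to 0.29). No SR protein, hnRNP or kinase among the members had a ratio as large as that of Cirbp in either cell type.

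In endothelial-like cells the Sm and LSm list stood at 0 higher and 8 lower of 14 measured, with a median of -0.61, for example Lsm1 at -1.29 (-2.22 to -0.42) and Snrpe at -0.77 (-1.21 to -0.34). After subtraction of microglial RNA it was 0 higher and 7 lower of 13. Once the GC and length trend was taken out it was 1 higher and 5 lower of 14. The list is small, its genes were counted in few cells, and 20.8% of all measured genes were lower at that fold. The U1, U2 and branch-site list also stood at 0 higher and 8 lower, of 19 measured, with a median of -0.27. Each of the other lists held at least 1 gene past the fold on the higher side.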

How the data were processed

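The submitters' processing notes name bcl2fastq, Cell Ranger 3.1.0 and GRCm38. The deposited values are raw UMI counts per gene and barcode. The matrices name Cell Ranger 4.0.0, per the file headers, and which version made them is not known. Cells with at least 500 genes, 1000 UMIs and at most 10% mitochondrial UMIs were clustered with scanpy 1.11.5 (2000 variable genes without the members, 30 components, 15 neighbours, Leiden resolution 0.6) and named from 10 markers for each of 16 classes. No doublet caller was used. Counts were summed per library and class and scaled to CPM. Intervals are exact Poisson for CPM, exact conditional binomial for ratios, exact Clopper-Pearson for shares, and a normal approximation for the difference between cell types. The scripts were tested on simulated counts: all of 200 genes changed 2-fold were recovered in microglia-like and 95.0% in endothelial-like cells, and 0.0268% and 5.36% of unchanged genes passed 1.5-fold (2.32% in endothelial-like cells with the interval on 1 side of 0). The simulated counts were Poisson draws from the same profile for both libraries, apart from the changed genes. They held no variation between cells, mice or libraries, so these rates are not rates of false calls in the real data. TMM factors came from edgeR 4.0.16. The gene list matched GENCODE M21 at all 55450 identifiers. Members, lists and rules were chosen with earlier results of these data known. Values were to be printed for members past 1.5-fold, the 3 highest by CPM and the 3 nearest to 0 in each family, and the 2 highest and 2 lowest genes of each list; other genes named were chosen after their values were seen.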

Additional observations from a re-analysis of the deposited data

Results flagged for a closer look

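The ratio of Srsf5, an SR protein that binds exonic enhancers, had opposite signs in the cell types, at -0.46 in microglia-like and 0.28 in endothelial-like cells, and the value of the difference was 0.74. With 1 library per group this difference was not tested beyond counting error.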

How the results depend on the processing

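The median ratio over members was -0.01 to 0.11 in microglia-like cells under 15 alternatives. In endothelial-like cells it fell below 0 with microglial RNA subtracted, at -0.13 with 10 markers and -0.16 without Sparc, a choice made after seeing the data. In microglia-like cells the number at least 1.5-fold higher, 1 as reported, was 0 with TMM factors, thinned cells, ratios within clusters, cells of 5000 to 10000 UMIs (added after seeing the data) or the GC and length trend removed, since Hnrnpm fell just short, and 2 with every gene of at least 1 UMI per library, which adds Srsf12. The number lower, 1 as reported, was 2 with TMM factors, within clusters or in cells under 5000 UMIs (also added later), with Srpk1, and 3 with the trend removed, with Srpk1 and Srsf5. In endothelial-like cells the number higher, 3 as reported, was 5 with median centring or TMM factors, 0 after thinning, where 24 members were measured, 1 with cells weighted equally and 4 in cells chosen by markers, none of them among the 3. The number lower, 1 as reported, was 0 with median centring or TMM factors, 4 with cells weighted equally, 3 after either subtraction and 2 with the trend removed; in cells chosen by markers it was 1, Srsf6 in place of Srsf9. Further alternatives also changed which members were higher in endothelial-like cells. Without cells over 10000 UMIs Tra2b was at 0.44 and Hnrnpab at 0.36, short of the fold, while Hnrnpul1 was at 0.62 and Hnrnpd at 0.61. After subtraction without Sparc Hnrnpul1 and Hnrnpd were past the fold, both at 0.62, and Hnrnpab was not. The sign of Tra2b reversed to -0.66 after subtraction with 10 markers and -0.31 without Sparc, and that of Hnrnpab to -0.023 in cells chosen by markers. No paired analysis was possible because each group has 1 library. Of the values for single members under an alternative, 535 moved by less than their counting interval, 208 moved by more, and the 3 values named above are sign changes of genes past 1.5-fold. Counting all members, 14 of 38 in microglia-like and 16 of 37 in endothelial-like cells changed sign in at least 1 alternative. Depth limits the endothelial values, which rest on 700396 and 833514 UMIs.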
